A study of Mus musculus with 11 samples.

Results

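The endothelin system of the mouse dorsal root ganglion (DRG) was followed through its 2 receptor genes (*Ednrb* and *Ednra*), 2 of its ligand genes (*Edn1* and *Edn3*) and the gene of the enzyme that releases the active ligands (*Ece1*). These 5 genes were taken by symbol from a table of 36670 genes, and each symbol matched 1 row. RNA-Seq was done on DRGs in 11 libraries, each labelled as a separate sample and taken here as 1 mouse. Paclitaxel (PTX), a chemotherapy drug that stabilizes microtubules and causes painful neuropathy, had been given 4 weeks before collection to 3 WT mice and to 2 mice lacking *Gpr37l1* (KO). The controls were 3 WT and 3 KO mice. The study's methods describe adult mice with the tm1Lex allele of *Gpr37l1*, a constitutive mutation that is not restricted to a cell type, and littermates on a C57BL/6 background. The controls are labelled as control, and neither whether they received vehicle nor the dose of PTX in the sequenced mice is clear from the sources used here. In each group the mouse with replicate number 3 is labelled female and the others are labelled male, so sex and that number cannot be told apart. The p-values measure the spread between these libraries.

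Endothelins are short peptides cut from long precursors, first by furin-type proteases and then by endothelin-converting enzymes. They act on a pair of G protein-coupled receptors, ETA (*Ednra*) and ETB (*Ednrb*). ETA prefers endothelin-1 and is best known from vascular smooth muscle, where it drives constriction. ETB binds all endothelins alike, and it is carried by glia and endothelial cells, where it also clears the peptide. In sensory ganglia, ETB is known from satellite glial cells (SGCs), the glia that wrap each neuronal cell body, and endothelin-1 is known to evoke pain and sensitization through both receptors. GPR37L1 and GPR37 are the closest relatives of the endothelin receptors but are not known to bind endothelins, which is the link between these genes and the deleted gene of this series.

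The ligand genes are set apart by the bases that code for the mature peptide of 21 residues. The stretches below are shown because reads of *Edn1*, *Edn2* and *Edn3* are told apart by such differences. They were read from GENCODE M21 transcripts (GRCm38, plus strand), and each lies within exon 2 of 5. Capitals mark the bases that differ from *Edn1*.
Edn1, chr13:42303649-42303711: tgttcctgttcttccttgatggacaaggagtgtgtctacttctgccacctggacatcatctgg
Edn2, chr4:120161951-120162013: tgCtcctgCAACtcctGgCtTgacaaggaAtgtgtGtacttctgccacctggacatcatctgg
Edn3, chr2:174761749-174761811: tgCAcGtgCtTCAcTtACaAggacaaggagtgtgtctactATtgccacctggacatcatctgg
Over these 63 bases, *Edn2* differed from *Edn1* at 10 positions and *Edn3* at 13 positions, so that 84.1% and 79.4% of the bases were the same. The differences lie mostly in the first part of the stretch, and the end of the peptide is coded by the same bases in all 3 genes.

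The gene bodies are on 5 chromosomes in GRCm38. *Ednrb* is at chr14:103814625-103844402 (minus strand), *Ednra* at chr8:77663031-77724464 (minus strand), *Edn1* at chr13:42301476-42307990 (plus strand), *Edn3* at chr2:174760619-174784042 (plus strand) and *Ece1* at chr4:137862237-137965229 (plus strand). *Ednra*, *Edn1* and *Ece1* each overlap a noncoding gene on the opposite strand. The library kit keeps the strand, but whether the counting used it is not stated, so reads of these pairs could not be told apart with certainty. The partner of *Edn1*, Gm47118, was above 0 in 1 library (0.28 FPKM, KO control 3), the partner of *Ednra* reached 0.06 FPKM and that of *Ece1* reached 0.12 FPKM. FPKM is the level the authors deposited, scaled for transcript length and library size.

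Estimated counts summed to 52735648 to 80348732 per library, and both KO PTX libraries lay low in that range (54914928 and 56747335). The targeted gene followed the labels: *Gpr37l1* stood at 27.57 to 35.70 FPKM in WT controls, at 14.56, 31.73 and 25.03 FPKM in WT PTX mice, at 0.21 to 0.29 FPKM in KO controls and at 0.60 and 1.15 FPKM in KO PTX mice. Markers of the tissue were high in all libraries, for example *Avil* of sensory neurons at 281 to 312 FPKM and *Fabp7* of SGCs at 84.2 to 223 FPKM. The Y-linked gene *Ddx3y* was at most 0.16 FPKM in the 4 libraries labelled female and at least 5.62 FPKM in the 7 labelled male. *Xist*, which is transcribed from the inactive X chromosome, stood at 8.12 to 9.13 FPKM in 3 of the female libraries but at 0.05 FPKM in KO control 3, a level found in males. That library lacks both marks, so results by sex are also given without it.

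*Ednrb* and *Ece1* were far more abundant than *Ednra* and the ligands. Over the 11 libraries, *Ednrb* had a mean of 25.8 FPKM ± 3.72 (SD), above 94.7% of the 34133 genes with any FPKM, and *Ece1* had 17.0 ± 1.17, above 91.8% of them. *Ednra* followed with 1.498 ± 0.226 FPKM, *Edn3* with 0.639 ± 0.220 and *Edn1* with 0.477 ± 0.185. *Ednrb* was above *Ece1* in 11 of 11 libraries (1.52-fold between means, exact two-sided sign-flip permutation test on log2(FPKM + 1), p = 0.000977, the smallest p that 11 libraries allow). *Ece1* exceeded *Ednra* 11.3-fold and *Ednra* exceeded *Edn3* 2.34-fold, each in 11 of 11 libraries and with the same p. The 2 ligands were not resolved: *Edn3* was above *Edn1* in 9 of 11 libraries with a mean log2 ratio of 0.15 ± 0.27 (exact p = 0.0977). Leaving out KO control 2 put this pair past the threshold, with a mean log2 ratio of 0.20 and an exact p of 0.0117. Over all libraries left out in turn, the exact p ran from 0.0117 to 0.195.

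**Figure D1:**
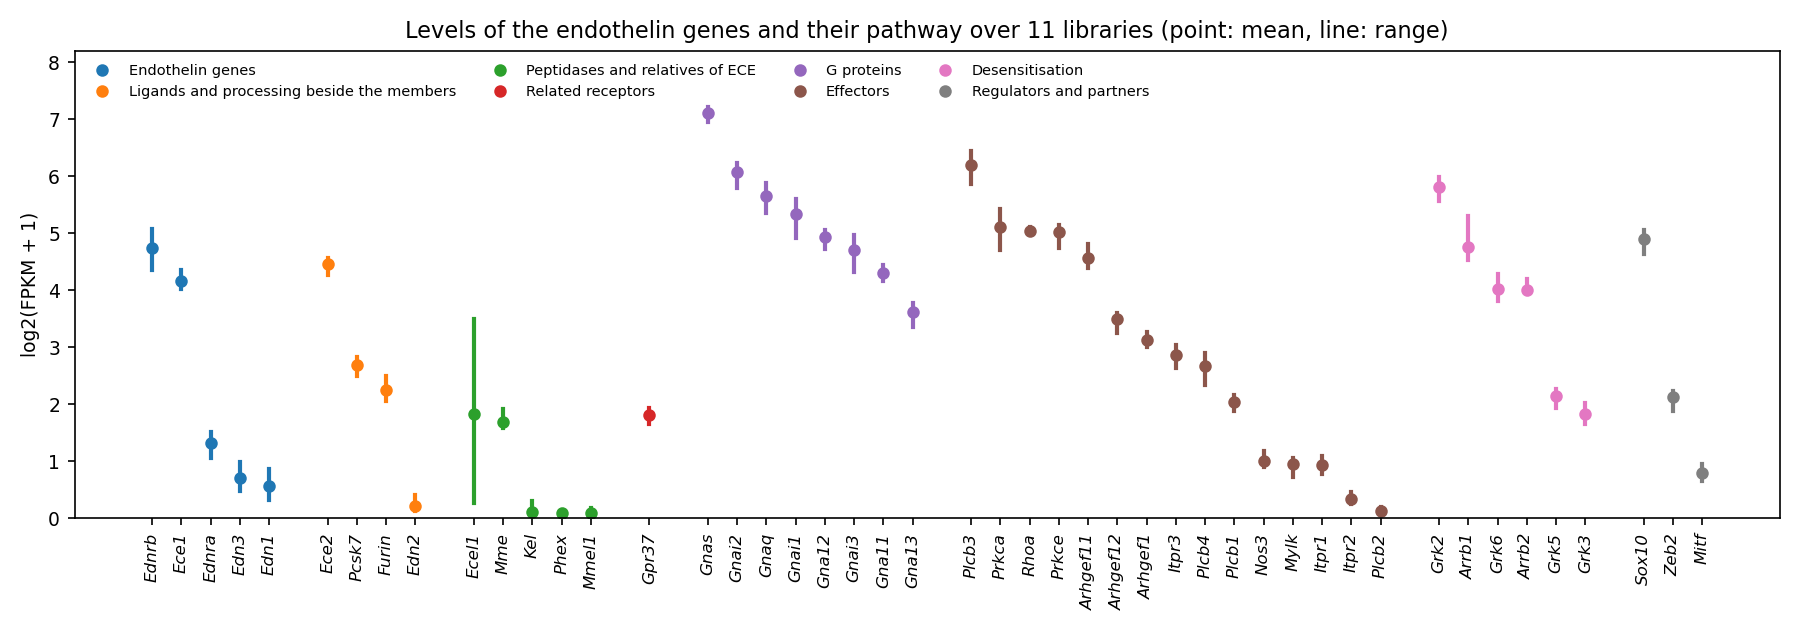
Mean (point) and range (line) over 11 libraries of log2(FPKM + 1) for the 5 endothelin genes and most other genes of their pathway, grouped by role (*Gpr37l1* is left out because it was deleted in 5 mice). *Ednrb* and *Ece1* lie within the range of the G proteins, whereas *Ednra* and the ligands lie near the lower end. *Ecel1* has the widest range, from 0.21 to 10.33 FPKM.

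*Edn1*, the gene of endothelin-1, is expressed mainly by endothelial cells. Its FPKM was 0.46, 0.53 and 0.44 in WT controls, 0.25, 0.41 and 0.44 in WT PTX mice, 0.77, 0.82 and 0.55 in KO controls and 0.27 and 0.31 in KO PTX mice. These values rest on 35 to 149 estimated counts per library, so the counting error is large. All 3 KO controls were above all 3 WT controls and above both KO PTX mice, whereas WT PTX and WT control mice overlapped at 0.44 FPKM. *Edn3*, a ligand required for neural crest development, stood at 0.50, 0.66 and 0.95 FPKM in WT controls, at 0.45, 0.68 and 0.50 in WT PTX mice, at 0.63, 0.39 and 0.89 in KO controls and at 0.39 and 0.99 in KO PTX mice. The groups overlapped in every comparison of *Edn3*. The remaining ligand gene, *Edn2*, ranged from 0.09 to 0.33 FPKM on 8 to 30 estimated counts and did not pass the filter.

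*Ece1*, the enzyme that cuts the inactive intermediate into the active peptide, was the steadiest of the genes. It stood at 15.31, 18.42 and 16.48 FPKM in WT controls, at 16.74, 17.37 and 15.59 in WT PTX mice, at 17.37, 16.81 and 16.97 in KO controls and at 16.27 and 19.39 in KO PTX mice. The groups overlapped throughout. Its coefficient of variation over all libraries was 6.91%, against a median of 8.45% for genes within 1.5-fold of its level. Its relative *Ece2*, which is enriched in neurons, was at a like level with 18.32 to 22.67 FPKM.

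*Ednrb*, the ETB receptor, was the most abundant of the genes. Its FPKM was 22.82, 32.54 and 19.39 in WT controls, 26.28, 24.74 and 25.75 in WT PTX mice, 31.92, 25.55 and 25.04 in KO controls and 25.43 and 23.87 in KO PTX mice. The lowest and the highest library of the series were both WT controls, so the range of that group held all the others. The coefficient of variation over all libraries was 14.5%, higher than for 87.1% of the 1623 genes within 1.5-fold of its level (median 8.29%). *Ednra*, the ETA receptor, stood at 1.07, 1.42 and 1.82 FPKM in WT controls, at 1.43, 1.39 and 1.58 in WT PTX mice, at 1.51, 1.44 and 1.68 in KO controls and at 1.30 and 1.84 in KO PTX mice. The highest library of each group was the one labelled female.

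**Figure D2:**
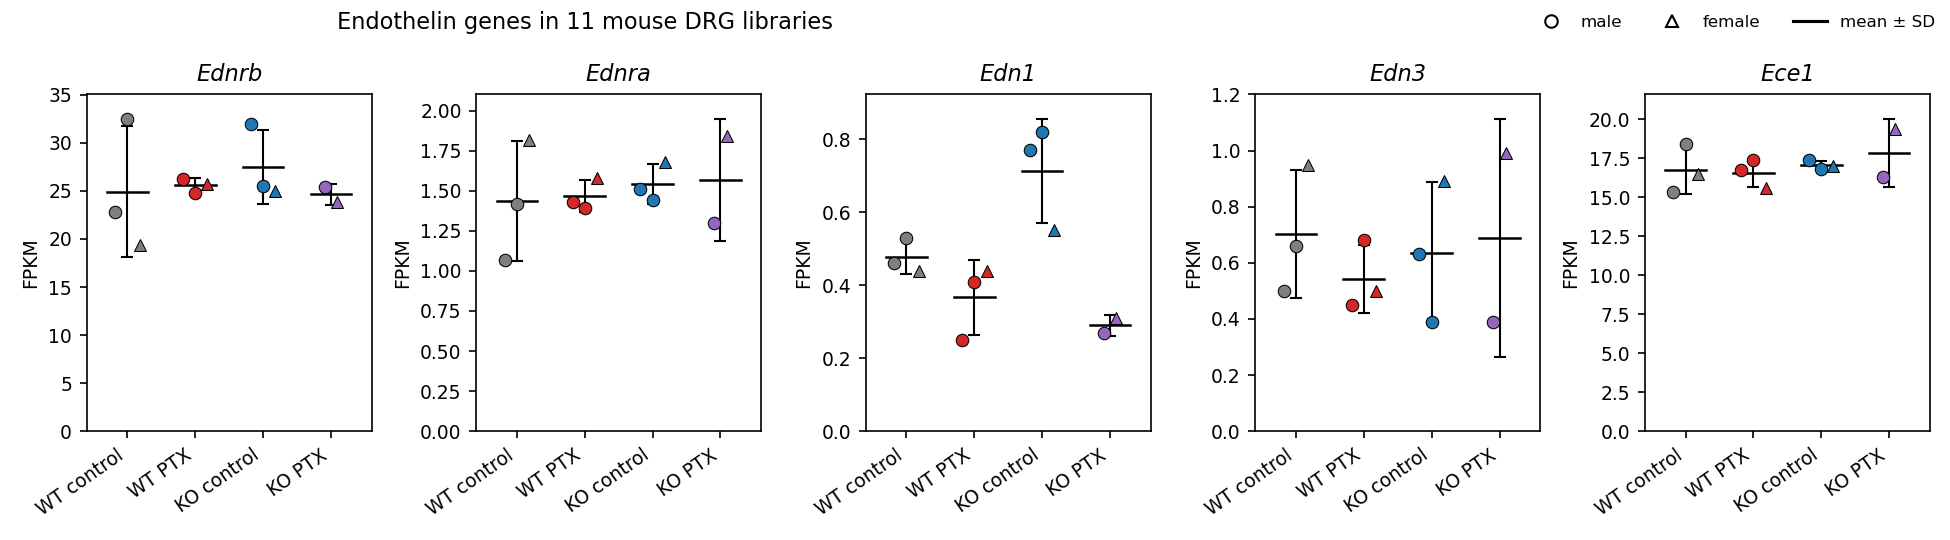
FPKM of each endothelin gene in each library by group (circles, labelled male; triangles, labelled female; line and bars, mean ± SD; n = 3, 3, 3 and 2). *Edn1* is highest in the 3 KO controls (0.55 to 0.82 FPKM), and *Ednrb* spreads most in WT controls (19.39 to 32.54 FPKM).

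The first question was whether the endothelin genes change in DRGs 4 weeks after PTX. In WT mice, none of the 5 genes passed an adjusted p of 0.05 by edgeR, where 0.00663% of the 15087 genes tested did. None had an unadjusted p under 0.05, where 13.5% of those genes did. DESeq2 and limma called none of the 5 either. The log2 fold change was 0.05 for *Ednrb* (SE 0.15, 95% CI -0.27 to 0.38, adjusted p = 0.892), 0.05 for *Ednra* (SE 0.14, adjusted p = 0.896), -0.02 for *Ece1* (SE 0.088, 95% CI -0.21 to 0.18, adjusted p = 0.939) and -0.30 for *Edn3* (SE 0.32, adjusted p = 0.683). For the receptors and the enzyme the intervals leave room for changes of at most 0.38 on the log2 scale. *Edn1* has a mean FPKM under the filter of 0.5, so its values come from the fit of 34503 genes without a filter, in which 0.0058% of genes were called. There its log2 fold change was -0.36 (SE 0.33, 95% CI -1.06 to 0.35, adjusted p = 0.834).

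In KO mice, PTX was set against control in 2 and 3 libraries. No endothelin gene passed the threshold by edgeR (0.00663% of genes did, and 0.0029% without a filter), DESeq2 or limma. In edgeR 1 of the 5, *Edn1*, had an unadjusted p under 0.05, against 3.48% of the 34503 genes in its fit and 4.32% of the 15087 genes in that of the other members. *Edn1* stood at 0.290 ± 0.0283 FPKM after PTX (n = 2) and at 0.713 ± 0.144 FPKM in controls (n = 3), a log2 fold change of -1.29 (SE 0.39, 95% CI -2.12 to -0.45, unadjusted p = 0.00564, adjusted p = 1.00 by edgeR). DESeq2 gave -1.28 for *Edn1* with an adjusted p of 0.316, and leaving out each library in turn gave -1.54 to -1.14. An unadjusted p under 0.05 in this direction was found for 2.02% of the 34503 genes, and 7.04% of them were, like *Edn1*, lower in both KO PTX libraries than in all KO controls. The other genes had log2 fold changes of -0.12 (*Ednrb*, 95% CI -0.49 to 0.25), -0.05 (*Ednra*, 95% CI -0.41 to 0.31), -0.03 (*Edn3*, 95% CI -0.83 to 0.76) and 0.06 (*Ece1*, 95% CI -0.16 to 0.28), each with an adjusted p of 0.999. The directions of *Ednra* and *Edn3* depended on the covariates of the fit.

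When the treatment labels were permuted within genotype, *Edn1* was the gene that differed most. Its mean was 0.336 ± 0.0847 FPKM in 5 PTX mice and 0.595 ± 0.161 FPKM in 6 controls, a mean difference of -0.26 on the log2(FPKM + 1) scale (exact two-sided permutation test over 200 arrangements, unadjusted p = 0.01, smallest possible 0.005). No PTX library was above a control, and 1 PTX library tied with 1 control at 0.44 FPKM. A p of at most 0.01 in this direction was found for 0.585% of the 34503 genes, and leaving out each library in turn gave p from 0.01 to 0.0333. This was 1 of 15 such tests on the 5 genes, and the p is not adjusted for them. The other 4 genes had exact p from 0.71 to 0.83 for PTX against control.

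Since endothelial cells make *Edn1*, their markers are given beside it. In bulk tissue, fewer cells of a type and less RNA per cell cannot be told apart. The summed FPKM of 9 endothelial markers (*Pecam1*, *Cdh5*, *Tek* and others) ranged from 29.87 to 33.59 in WT controls, from 29.15 to 34.75 in WT PTX mice, from 33.95 to 36.22 in KO controls and from 29.28 to 30.75 in KO PTX mice. In the KO mice, 8 of the 9 markers were lower after PTX, with a median log2 fold change of -0.24, and none passed the threshold. At an unadjusted p under 0.05 by edgeR, 1 of the 9 was lower, as were 2.57% of genes tested. Per 100 FPKM of these markers, *Edn1* stood at 1.31 to 1.77 in WT controls, 0.787 to 1.51 in WT PTX mice, 1.52 to 2.36 in KO controls and 0.922 to 1.01 in KO PTX mice. On this ratio both KO PTX libraries were below all KO controls, while the ranges of WT PTX and WT control mice overlapped. The ratio reuses the *Edn1* values, so it is not separate support. Of single genes, 7.04% of 34503 were lower without overlap in KO mice after PTX. All 6 fibroblast markers were also lower in KO mice after PTX (median log2 fold change -0.63, sum 96.5 and 170 FPKM against 163 to 208 FPKM). At an unadjusted p under 0.05, 5 of the 6 were lower, where 2.57% of genes tested were, and none passed the threshold. All 6 skeletal muscle markers were lower as well (median log2 fold change -1.50), 0 of them at such a p. The spinal cord markers summed to 9.55 and 21.6 FPKM in the KO PTX libraries against 2.27 to 9.16 FPKM elsewhere. All 4 of them that were tested were higher in KO mice after PTX (median log2 fold change 2.60). Of these, 3 had an unadjusted p under 0.05 by edgeR, where 1.75% of genes tested were higher at such a p. Among them all, *Olig2* and *Mog* had medians of 0 and 0.03 FPKM over the 11 libraries and maxima of 0.48 and 1.3 FPKM. The part of these cell types in the *Edn1* result was not tested.

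**Figure D3:**
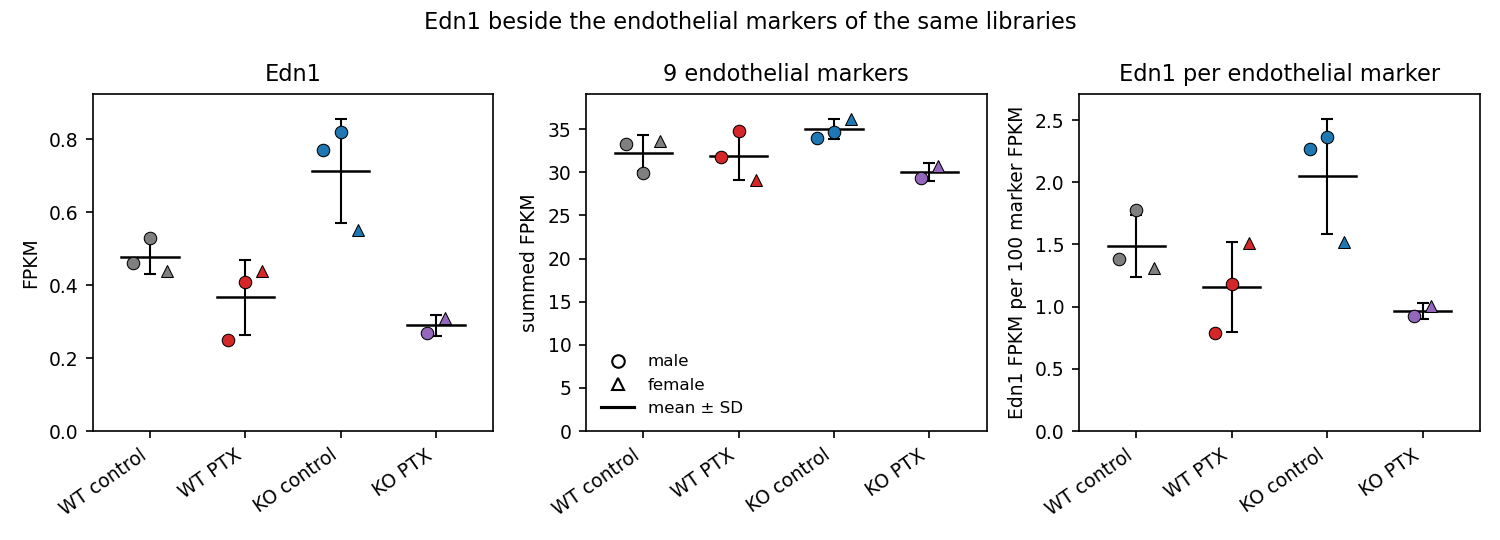
FPKM of *Edn1*, summed FPKM of 9 endothelial markers and *Edn1* FPKM per 100 marker FPKM in each library by group (circles, labelled male; triangles, labelled female; line and bars, mean ± SD; n = 3, 3, 3 and 2). The KO control and KO PTX libraries do not overlap in any of the 3 panels, and the last panel reuses the *Edn1* values of the first. Of single genes, 7.04% of 34503 were lower without overlap in this comparison.

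The next question was whether loss of *Gpr37l1*, itself a relative of the endothelin receptors, goes with other levels of these genes. In controls, none of the 5 genes passed the threshold by edgeR (0.00663% of genes did, and 0.0029% without a filter), DESeq2 or limma. None had an unadjusted p under 0.05 by edgeR, where 7.54% of the genes tested did. The log2 fold change of KO against WT was 0.15 for *Ednrb* (SE 0.15, 95% CI -0.18 to 0.48, adjusted p = 0.781), 0.12 for *Ednra* (SE 0.14, adjusted p = 0.811), 0.03 for *Ece1* (SE 0.088, adjusted p = 0.941) and -0.16 for *Edn3* (SE 0.31, adjusted p = 0.893). *Edn1* had the largest value, 0.59 (SE 0.32, 95% CI -0.11 to 1.29, adjusted p = 0.910 by edgeR). Its unadjusted p by limma on log2(FPKM + 1) was 0.0358. In that fit 929 of 34503 genes were higher and 1036 lower at an unadjusted p under 0.05. All 3 KO controls exceeded all 3 WT controls for *Edn1*, which held for 3.1% of the 34503 genes. Of the 9 endothelial markers, 7 had higher fitted values in KO controls, and 3 had an unadjusted p under 0.05 (3.96% of genes tested were higher at such a p). Their summed FPKM did not overlap between the groups, and 4.55% of single genes tested were higher without overlap. Per 100 FPKM of these markers, *Edn1* of KO controls (1.52 to 2.36, median 2.27) overlapped that of WT controls (1.31 to 1.77). The part of the endothelial markers in the higher *Edn1* was not tested. The partner on the opposite strand was above 0 only in KO control 3 (10 estimated counts), and whether its reads entered those of *Edn1* was not tested.

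After PTX, KO and WT mice differed by -0.02 for *Ednrb* (95% CI -0.39 to 0.34), 0.02 for *Ednra* (95% CI -0.33 to 0.38), 0.11 for *Ece1* (95% CI -0.11 to 0.33), 0.10 for *Edn3* (95% CI -0.71 to 0.92) and -0.34 for *Edn1* (95% CI -1.15 to 0.48) on the log2 scale. None of these passed the threshold by edgeR (0.0133% of genes did, and 0.0058% without a filter), DESeq2 or limma. No unadjusted p of edgeR was under 0.05, where 3.55% of the genes tested had one. The difference between the PTX effects of the 2 genotypes was tested by an interaction term. It was largest for *Edn1* at -0.93 (SE 0.50, 95% CI -2.01 to 0.15, adjusted p = 0.978) and lay between -0.17 and 0.26 for the others, with 0 of 5 past the threshold against 0.00663% of genes tested (0.0029% without a filter). So the lower *Edn1* after PTX in KO mice was not shown to differ from the change in WT mice. When genotype labels were permuted within treatment, the exact p ranged from 0.36 to 0.86 over the 5 genes.

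**Figure D4:**
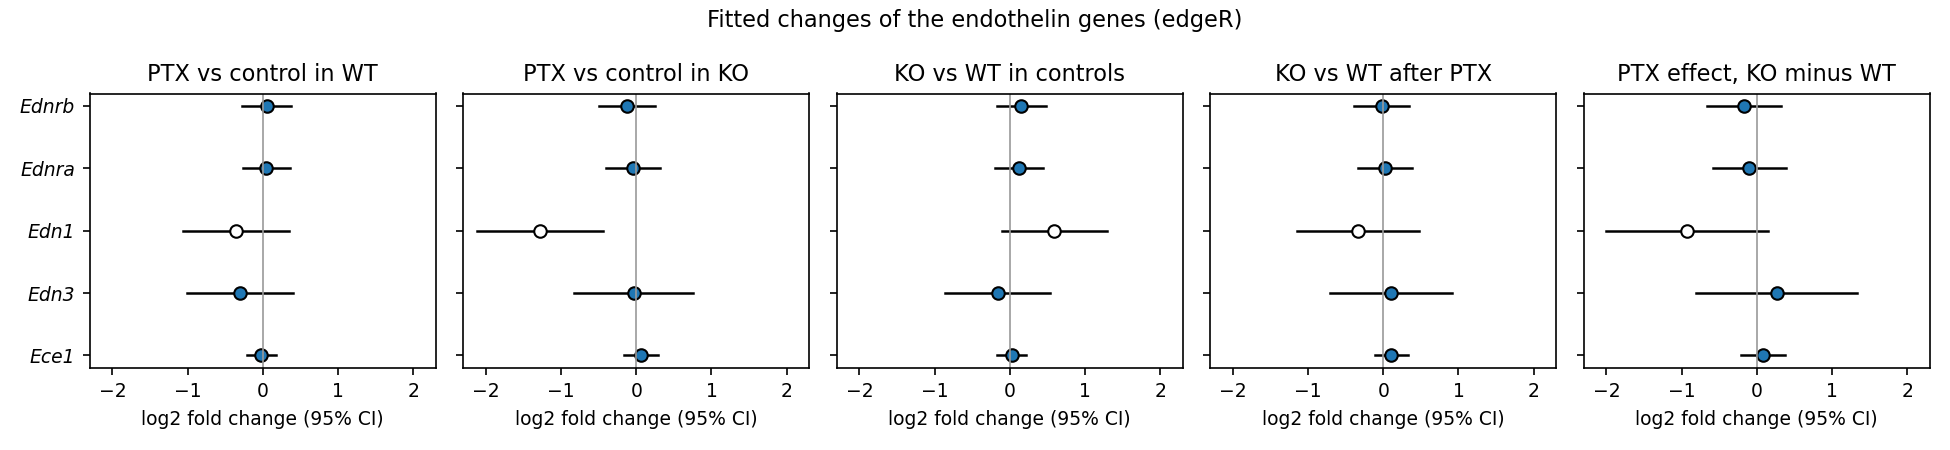
log2 fold change with its 95% CI from edgeR for the 5 endothelin genes in 4 comparisons and the interaction (filled, fit of 15087 genes; open, *Edn1* from the fit of 34503 genes without a filter). The interval of *Edn1* in KO mice after PTX, from -2.12 to -0.45, is the only one drawn that excludes 0, before adjustment over all genes.

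The receptor and ligand genes were then compared by labelled sex, a comparison added after the values of *Ednra* were seen. *Ednra* was 1.73 ± 0.123 FPKM in the 4 libraries labelled female and 1.37 ± 0.145 FPKM in the 7 labelled male. All 4 females (1.58 to 1.84 FPKM) were above all 7 males (1.07 to 1.51 FPKM), which held for 0.915% of the 15087 genes tested. The mean difference within groups was 0.21 on the log2(FPKM + 1) scale. The comparison was chosen because the female library had been seen to be the highest of each group, so for *Ednra* these values are a description and no permutation p is given. In edgeR the sex term of *Ednra* was 0.33 (SE 0.11, 95% CI 0.09 to 0.58, adjusted p = 0.4997), and 0.0398% of genes passed the threshold. The interval and the p do not allow for that choice, so they are no support for a difference by sex. Without KO control 3, the library that lacked *Xist*, the difference in *Ednra* was 0.25 and the sex term was 0.40 (adjusted p = 0.399). Set against markers of mural cells (the contractile cells of vessels) or fibroblasts, the sexes overlapped. Per 100 FPKM of mural markers, *Ednra* stood at 1.91 to 3.63 in females and 1.62 to 3.59 in males, and per 100 FPKM of fibroblast markers at 0.807 to 1.19 and 0.715 to 1.35. Without KO control 3 the female ranges were 1.91 to 2.23 and 0.880 to 1.19, which still overlapped those of the males. *Rgs5* makes up a large part of the mural sum (9.15 to 56.2 FPKM over the libraries). Whether mural cells or fibroblasts have a part in the *Ednra* values was not tested.

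*Edn3* was higher in the female library in 3 of 4 groups, at 0.833 ± 0.225 FPKM in females and 0.529 ± 0.126 FPKM in males. The ranges overlapped because the female WT PTX mouse had 0.50 FPKM. The exact p was 0.0741, and the sex term of edgeR for *Edn3* was 0.63 (SE 0.25, 95% CI 0.08 to 1.17, adjusted p = 0.547). Without KO control 3, *Edn3* had an exact p of 0.222 and a sex term of 0.57. *Ednrb* went the other way, with 23.5 ± 2.86 FPKM in females and 27.0 ± 3.71 FPKM in males (exact p = 0.167, sex term -0.21, SE 0.11, adjusted p = 0.648, or -0.20 without KO control 3). The ratio of *Ednrb* to *Ednra* FPKM was 10.7 to 16.3 in females, with or without KO control 3, and 17.7 to 22.9 in males, without overlap. This ratio contains *Ednra*, whose values prompted the comparison, so it is a description only. How many gene pairs separate in this way was not counted. *Edn1* (exact p = 0.741) and *Ece1* (exact p = 0.815) had sex terms of -0.04 and -0.0072, which became 0.13 and 0.0085 without KO control 3.

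Markers of vessel wall, connective tissue, neurons and SGCs also varied between the labelled sexes. The 10 mural markers summed to 46.3 to 95.4 FPKM in females and 36.2 to 70.8 FPKM in males. The lowest female was KO control 3, and without it the female sums (78.2 to 95.4 FPKM) lay above those of all males. Member by member, 4 of the 10 had a higher and 6 a lower fitted value in females (median log2 fold change -0.03), or 5 and 5 without KO control 3. *Rgs5*, at 9.15 to 56.2 FPKM over the libraries, had a sex term of 1.41 without KO control 3 (adjusted p = 0.333 by edgeR). The 6 fibroblast markers summed to 133 to 208 FPKM in females and 96.5 to 189 FPKM in males, and all 6 had a higher fitted value in females (median log2 fold change 0.38, or 0.41 without KO control 3). The 6 sensory neuron markers summed to 3478 to 3569 FPKM in females, with or without KO control 3, and 3581 to 4181 FPKM in males. Of the 8 SGC markers, 6 had a lower fitted value in females, or 4 without KO control 3, and 1 was lower at an unadjusted p under 0.05, against 4.12% of all genes tested. That gene was *Fabp7*, a fatty acid binding protein of SGCs, with a sex term of -0.60 (SE 0.084, adjusted p = 0.0613 by edgeR), which passed the threshold without KO control 3 (-0.71, adjusted p = 0.0123). The SGC markers summed to 1052 to 1284 FPKM in females and 1098 to 1490 FPKM in males, and per 100 FPKM of them *Ednrb* stood at 1.84 to 2.19 in females and 1.53 to 2.67 in males. With all libraries no marker of these lists passed the threshold, and their part in the results by sex was not tested.

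**Figure D5:**
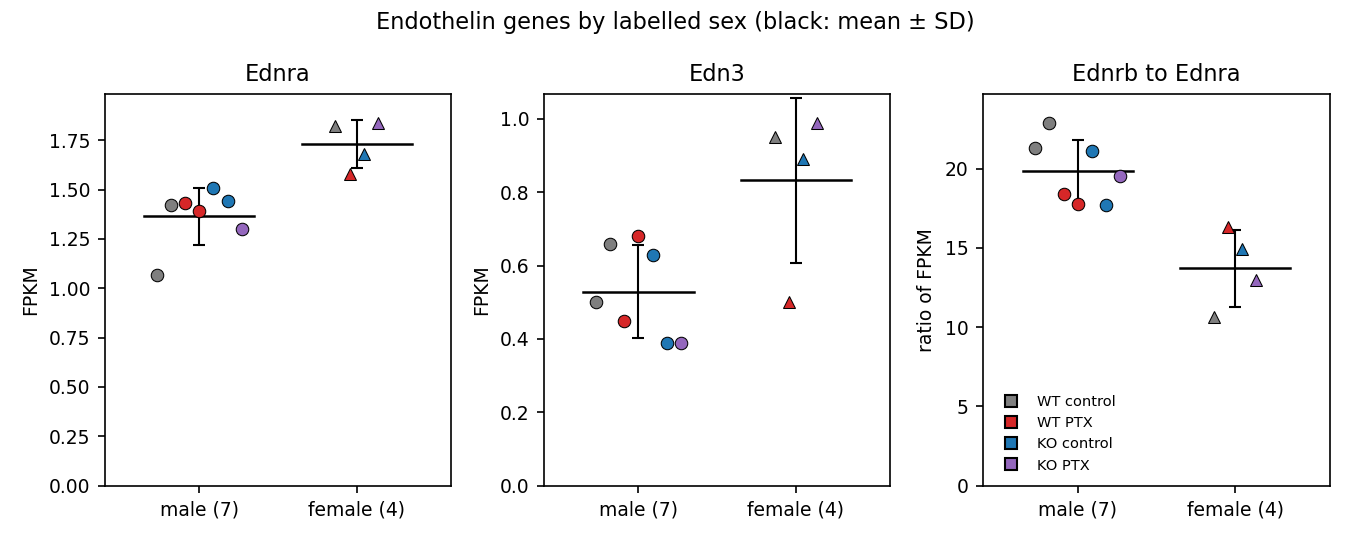
FPKM of *Ednra* and *Edn3* and the ratio of *Ednrb* to *Ednra* FPKM by labelled sex (7 male and 4 female libraries; colours, groups; line and bars, mean ± SD). For *Ednra* and for the ratio the female libraries do not overlap the male ones, and for *Edn3* they overlap through the WT PTX female at 0.50 FPKM. The ratio contains *Ednra*, so its separation is not independent of that gene.

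The rest of the pathway was taken from 7 lists of 45 genes, of which 39 passed the filter. The deleted gene was the only one called: *Gpr37l1* fell by 7.03 on the log2 scale in KO controls (SE 0.37, adjusted p = 4.5e-05) and fell by 4.79 after PTX (SE 0.39, adjusted p = 0.00173). Its values for PTX against control were -0.48 in WT mice (adjusted p = 0.449) and 1.77 in KO mice (adjusted p = 0.999). In KO mice both PTX libraries (0.60 and 1.15 FPKM) were above the controls (0.21 to 0.29 FPKM), as were 11.3% of the 15087 genes tested. *Gpr37*, its closest relative, ranged from 2.16 to 2.83 FPKM and had log2 fold changes from -0.02 to 0.13 in the 4 comparisons, none past the threshold. Of the 39 genes, 22 had a higher and 17 a lower fitted value after PTX in WT mice, with a median log2 fold change of 0.03 against -0.0058 over all genes tested. At an unadjusted p under 0.05, 6 of the 39 were higher and 5 were lower, where 6.59% of all genes tested were higher and 6.87% lower. In KO mice after PTX, 1 was higher (the deleted gene itself) and 1 lower at such a p, against 1.75% and 2.57% of all genes. In KO against WT controls 2 were higher and 3 lower, 1 of them the deleted gene, against 3.96% and 3.58%.

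The pathway genes with the highest fitted values in WT mice after PTX were *Prkca*, a protein kinase C isoform activated by ETA and ETB through diacylglycerol, and *Plcb4*, a phospholipase C that Gq switches on. Each stood 0.34 higher on the log2 scale (adjusted p = 0.238 and 0.227). *Prkca* was also among the largest in KO against WT controls (0.29, adjusted p = 0.657). In KO mice after PTX the lowest fitted values were those of *Pcsk7*, a protease of the furin family (-0.25, adjusted p = 0.999), and *Mylk*, the kinase that makes smooth muscle contract (-0.22, adjusted p = 0.999). In KO against WT mice after PTX, the widest differences beside *Gpr37l1* and *Ecel1* were those of *Gnai2* (0.22) and *Gnai1* (-0.21), which code for inhibitory G protein subunits (adjusted p = 0.993 for each). In the interaction, *Gnai1* (-0.39) and *Mitf* (-0.37), a melanocyte factor downstream of ETB, were lowest (adjusted p = 0.724 and 0.762).

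*Ecel1*, a peptidase related to ECE and known for its induction in injured neurons, had a wide range. It stood at 6.31, 10.33 and 0.27 FPKM in WT controls, at 0.49, 1.27 and 0.26 in WT PTX mice, at 1.98, 4.38 and 0.21 in KO controls and at 2.16 and 0.60 in KO PTX mice. The lowest library of each group was the one labelled female. Its log2 fold change was -2.44 after PTX in WT mice (SE 0.70, adjusted p = 0.255), 0.32 after PTX in KO mice (SE 0.76, adjusted p = 0.999), -1.21 in KO against WT controls (SE 0.63, adjusted p = 0.664), 1.55 in KO against WT mice after PTX (SE 0.76, adjusted p = 0.993) and 2.76 in the interaction (SE 0.98, adjusted p = 0.724). The sex term was -3.09 (SE 0.61, adjusted p = 0.247), larger in size than any of these, and -2.74 (adjusted p = 0.333) without KO control 3. None passed the threshold. *Arrb1* (-0.21), *Grk5* (0.19) and *Prkca* (0.19), which act in receptor desensitization and signaling, were the other extremes of the sex term, at -0.21, 0.22 and 0.29 without KO control 3.

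Last, the genes whose levels followed each endothelin gene most closely were listed by Pearson r of log2(FPKM + 1) over the 11 libraries, as a description across libraries that share depth and tissue make-up. Each list holds the 3 highest of 15083 genes, and no r was tested. For *Ednrb* they were *Ms4a6c* (r = 0.92), *Rgmb*, a BMP coreceptor (0.86), and *Xlr3a* (0.85). For *Ednra* they were *Zadh2* (0.97), *Zfp748* (0.95) and *Prdm10* (0.93). For *Edn1* they were *Zhx2* (0.85), Gm15610 (0.84) and *Sumo2*, a ubiquitin-like modifier (0.83). For *Edn3* they were *Bahd1* (0.92), *Igha*, an immunoglobulin heavy chain (0.91), and *Srprb* (0.89). For *Ece1* they were *Tmem63b* (0.93), *Zc3h4* (0.91) and *Adipor1*, an adiponectin receptor (0.91). *Ms4a6c*, *Xlr3a* and *Igha* had low means (0.76, 0.54 and 0.64 FPKM). None of these is one of the marker genes used here, and the *r* of *Ednrb* with the summed SGC markers was 0.19. Over the 10 marker sums, r ran from -0.57 (mural) to 0.43 (sensory neuron) for *Ednrb* and from -0.60 (sensory neuron) to 0.54 (fibroblast) for *Ednra*. It ran from -0.35 (spinal cord) to 0.52 (endothelial) for *Edn1* and from -0.39 (sensory neuron) to 0.65 (fibroblast) for *Edn3*. For *Ece1* it ran from -0.10 to 0.19.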

How the data were processed

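The authors deposited 1 table with FPKM (scaled for length and library size) and estimated counts per gene, not normalized. The submitters' processing notes name cutadapt, FastQC, HISAT2, StringTie and build mm10, without versions. Estimated counts were tested with edgeR 4.0.16 (TMM, quasi-likelihood) in R 4.3.3, with all 11 libraries in one fit and labelled sex as a covariate, over the 15087 genes whose FPKM averaged 0.5 or more. P-values were Benjamini-Hochberg adjusted over all genes (threshold 0.05). *Edn1* was read from the fit without a filter. Alternatives were DESeq2 1.42.0, limma 3.58.1, other filters, scalings and covariates, and each library left out. Single genes were compared by exact permutation of log2(FPKM + 1) (scipy 1.17.1, numpy 2.4.6). The model was tested on simulated data.

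The endothelin genes and all lists were chosen with earlier results of these data known. Named by rule were these genes, *Gpr37*, *Gpr37l1*, pathway genes past the threshold and the 2 highest and 2 lowest per comparison, the 3 most alike genes and the first markers of each of 10 lists (SGC, myelinating Schwann, endothelial, mural, fibroblast, sensory neuron, macrophage, skeletal muscle, spinal cord, red cell), of which no marker was called with all libraries. *Xist*, *Ddx3y* and the overlapping genes were named after their values were seen. A pathway gene that the rule names is not reported here.

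KO PTX libraries are numbered 2 and 3 in their descriptions, as used here, and 1 and 2 in their titles. The deviations of same-numbered WT and KO controls from their group means correlated weakly (r = 0.113, 0.116 and 0.230). Number 3 is also the labelled female of each group, so these values do not show that the numbers pair the samples. The main fit did not pair the libraries, and the number was a block only in an alternative fit. By identifier, GENCODE M21 held 36532 of the 36670 genes.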

Additional observations from a re-analysis of the deposited data

How the results depend on the processing

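No endothelin gene was called in any comparison by edgeR, DESeq2 or limma, with or without the filter, and with any library left out. Counts of all called genes, which give the background, moved more. For PTX in WT mice, edgeR called 1 gene, DESeq2 309, the fit of those groups alone 5, the fit without a filter 2, and the fit without the sex covariate and both limma fits 0. For PTX in KO mice the counts were 1 with edgeR, 29 with DESeq2, 4 with those groups alone and 2 with low library totals as a covariate. For KO against WT they were 1 and 42 (DESeq2) in controls, and 2, 10 (DESeq2) and 5 (those groups alone) after PTX. For the interaction they were 1, 12 (DESeq2) and 2 (low totals), and for sex 6, 123 (DESeq2) and 14 (no filter). Leaving out 1 library gave 0 to 30 genes for PTX in WT (0 without WT control 1, WT PTX 1 or 2 or KO PTX 3, and 2, 6, 7 and 30 without KO control 1, KO control 2, WT control 2 and WT control 3), 1 to 7 for PTX in KO (7 without KO control 2 or KO PTX 2, 3 without KO PTX 3), 1 to 4 for KO against WT controls (4 without KO control 3, 2 without KO control 1 or 2, WT control 2 or WT PTX 3), 2 to 7 after PTX (7 without KO PTX 2, 4 without WT control 2), 1 to 6 for the interaction (6 without KO PTX 2, 4 without WT control 2, 2 without WT control 1 or 3 or KO PTX 3) and 5 to 12 for sex (12 without KO control 3). DESeq2 without a filter, an alternative chosen after seeing the data, called 363 and 154 genes after PTX in the 2 genotypes (WT and KO), 182 and 70 between the genotypes (controls and PTX), 77 in the interaction and 135 by sex. The causes were not tested.

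Small fold changes turned direction, none of them called. For PTX in KO mice, *Ednra* was 0.026 and *Edn3* 0.12 without the sex covariate, and 0.22 and 0.52 with low totals as a covariate. With low totals, *Ece1* was -0.017 in KO against WT controls, *Ednra* 0.16 in the interaction and *Ece1* 0.012 for sex, and limma gave 0.0060 and 0.0062 for *Ece1* and sex. Leaving out 1 library gave, for PTX in WT, -0.093 to 0.26 (*Ednrb*), -0.079 to 0.14 (*Ednra*) and -0.073 to 0.062 (*Ece1*), and for PTX in KO, -0.15 to 0.077 (*Ednra*), -0.49 to 0.38 (*Edn3*) and -0.10 to 0.25 (*Ece1*). For KO against WT controls the ranges were -0.0070 to 0.21 (*Ednra*), -0.32 to 0.015 (*Edn3*) and -0.029 to 0.11 (*Ece1*), and after PTX -0.10 to 0.12 (*Ednrb*), -0.081 to 0.15 (*Ednra*), -0.33 to 0.54 (*Edn3*) and -0.051 to 0.29 (*Ece1*). For the interaction they were -0.19 to 0.046 (*Ednra*), -0.16 to 0.71 (*Edn3*) and -0.070 to 0.27 (*Ece1*), and for sex -0.23 to 0.13 (*Edn1*) and -0.080 to 0.025 (*Ece1*). *Edn1* kept its direction in the other comparisons when any library was left out.

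On the log2(FPKM + 1) scale, leaving out 1 library gave, for PTX against control, -0.12 to 0.063 (*Ednrb*), -0.058 to 0.094 (*Ednra*), -0.18 to 0.078 (*Edn3*) and -0.038 to 0.082 (*Ece1*), for KO against WT -0.024 to 0.16 (*Ednrb*), -0.014 to 0.14 (*Ednra*) and -0.10 to 0.15 (*Edn3*), and for sex -0.074 to 0.036 (*Edn1*) and -0.052 to 0.068 (*Ece1*). The sex difference of *Ednra* was 0.17 to 0.25. That of *Edn3* was 0.19 to 0.38 and gained it without WT PTX 2 (exact p = 0.0278). The log2 ratio of *Edn3* to *Edn1* was 0.10 to 0.20.

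With the replicate number as a block, 1, 1, 1 and 2 genes were called in the 4 comparisons and 1 in the interaction, as without it, and no call of an endothelin gene changed. The blocked log2 fold changes of *Edn1* were -0.37 and -1.36 for PTX in WT and KO mice and 0.60 for KO against WT controls. Between PTX and control mice of one genotype, the deviations of same-numbered libraries had r of -0.027, -0.164 and 0.036 in WT mice. In KO mice r was 0.074 and 0.087, so pairing was not shown there either. *Edn1* and *Edn2* are limited most by depth, with 35 to 149 and 8 to 30 estimated counts per library.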

Other observations

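The macrophage list is 1 of 10 marker lists, all chosen with earlier results of these data known, so its values are a description. Its markers were low in WT mice after PTX. All 7 had a negative fitted log2 fold change (median -0.57), 6 of them at an unadjusted p under 0.05. Their summed FPKM was 17.0 to 19.4 against 21.6 to 27.8 in WT controls, without overlap. Of all 15087 genes tested, 6.87% were lower at such a p and 7.37% were lower without overlap. None passed the adjusted threshold of edgeR. In KO mice the sum was 18.2 and 20.9 FPKM after PTX and 19.4 to 23.1 FPKM in controls, and 5 of the 7 markers were lower (median log2 fold change -0.14). The difference between the genotypes was positive for all 7 (median 0.30) and was not called for any.

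The 6 skeletal muscle markers summed to 3.05 to 518 FPKM over the libraries, and all 6 had lower fitted values in females (median log2 fold change -1.25, or -0.76 without KO control 3, none called). All 6 also had lower fitted values after PTX, with medians of -2.79 in WT and -1.50 in KO mice, none called. In KO against WT mice the 6 were lower in controls (median -0.51) and higher after PTX (median 0.78), none called. The summed red cell markers ranged from 71.5 to 294 FPKM, and those of myelinating Schwann cells from 1232 to 2168 FPKM.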
